A study of Mus musculus with 6 samples.

Results

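Amino acid transporters of the solute carrier families Slc1a, Slc3a, Slc6a, Slc7a, Slc36a, Slc38a and Slc43a were followed in mouse kidney RNA. They were taken by symbol from the deposited table, which gave 64 genes of 22183, here called carriers. They include the heavy chains Slc3a1 and Slc3a2 and 1 gene, Slc7a6os, that matches by symbol but encodes no transporter. By known role, 62 of them were placed in 9 groups, and Slc7a6os and Slc6a21 in none. Of the 64, 46 had enough reads to be tested. With the Wnt1 plasmid, 15 of the 46 were lower (32.6%) and 9 were higher (19.6%), and the remaining 22 were not called. Of all 14432 tested genes, 18.7% were lower and 22.4% higher. Of the 15 that fell, 8 were in the group placed at the membrane that faces the filtrate, led by Slc7a13 (11.5-fold) and Slc6a19 (6.79-fold). Among those that rose were carriers of low level in control kidney, such as Slc7a2 (5.65-fold), Slc7a5 (2.50-fold) and Slc38a1 (2.43-fold).

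In the kidney, filtered amino acids are recovered almost wholly by the proximal tubule. Carriers of the brush border, the membrane that faces the filtrate, bring them into the cell together with sodium or protons or in exchange for other amino acids. Carriers of the basolateral membrane, which faces the blood, let them out again. Several of these carriers work as pairs of a light chain from the Slc7 family and a heavy chain, either Slc3a1 or Slc3a2, that brings the light chain to the membrane. Other members supply growing, stressed or immune cells with glutamine, leucine, arginine or cystine, and a few act in lysosomes or at synapses. Bulk kidney RNA was measured, so fewer cells of a type and less RNA per cell cannot be told apart.

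The series compared kidneys of mice that had been given the empty vector pcDNA3 (control, 3 libraries) with kidneys of mice that had been given the Wnt1 plasmid (Wnt1, 3 libraries), whose gene encodes a signal that cells secrete to activate beta-catenin in others. The series title concerns chronic kidney disease after acute injury, and the comparison asks which kidney transcripts differed between the plasmids. The labels give the same batch for all 6 libraries and give no strain, age, sex, injury procedure, route, dose or time after the plasmid. They do not say whether the libraries of a group stem from different animals. The p-values therefore set the group difference against the spread of these libraries within a group, and that spread may be technical. Replicates are numbered in the order of the records, and the numbers pair nothing.

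Expected counts summed to between 23585020 and 27218085 a library. A count of 0 makes an expected count above about 3 reads unlikely. On library totals, 3 reads equalled a CPM (count scaled to the library total) of 0.11 to 0.127. Levels below are divided in addition by a composition factor, which ran from 0.849 to 1.194 over the libraries and shifts this limit. The Wnt1 gene had 0 reads in 5 libraries and 1 read in Wnt1 replicate 2, and did not check the labels. Markers of the proximal tubule were present in every library and were lower with Wnt1 in 14 of 15 genes. Their summed FPKM (fragments scaled by transcript length and library total) ran from 31097 to 38626 in control and from 6193 to 9613 with Wnt1, and that list holds 2 of the carriers, Slc7a7 and Slc6a19. Most of each sum came from 1 gene, Kap, at 22032, 28982 and 29603 FPKM in control and 3889, 3962 and 6916 FPKM with Wnt1. All 4 markers of the injured tubule, all 8 of macrophages, all 4 tested of neutrophils, all 4 of fibroblasts and all 5 of T and NK cells were higher, and no defining marker among them was at 0 in both groups. Other kidney cells also had lower markers, with 3 of 3 lower for podocytes, 2 of 3 for the thick ascending limb, 2 of 3 for the distal convoluted tubule, 2 of 4 for the endothelium and 1 of 4 for the collecting duct, and none higher. With library totals, described below, 1, 2, 1, 1 and 1 of these were lower, and 1 of the thick ascending limb was higher. Their median log2 changes with library totals were, in the same order, -0.04, -0.83, -0.54, -0.05 and 0.001. Of all 14432 tested genes, 18.7% were lower and 22.4% higher, and with library totals 8.92% and 44.0%. The part of these markers in the carriers' changes was not tested. Summed macrophage markers ran from 100 to 122 FPKM in control and from 1310 to 1613 FPKM with Wnt1. Control replicate 3 and Wnt1 replicate 3 stood apart from the other libraries of their groups. In the fifth of tested genes with the lowest transcript GC content (31.0% to 44.0%), their median log2 difference from replicates 1 and 2 was -0.46 in control and -0.74 with Wnt1, and in the fifth with the highest (55.6% to 74.7%) it was 0.10 and 0.40. The part of these differences in the results below was not tested, except where values without both libraries are given.

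Levels below are CPM scaled in addition by a composition factor (TMM). Fold changes are log2 values of Wnt1 over control, each with its standard error after ±, and a gene was called at an edgeR adjusted p under 0.05. Of 14432 tested genes, 41.1% were called, against 24 of the 46 tested carriers (52.2%). Higher calls made up 22.4% of all tested genes and 19.6% of the carriers, and lower calls 18.7% and 32.6%. The median log2 fold change was -0.23 over the carriers and 0.05 over all tested genes. In 29 of the 46 carriers (63%) the libraries of the groups did not overlap, against 53.5% of all tested genes, and 5 of those 29 were not called. Scaling by library totals, without the composition factor, moved the median of all genes to 0.47 and that of the carriers to 0.19, and the carriers' calls became 15 higher and 13 lower of 46 (32.6% and 28.3%). Of all 14432 genes, 44.0% were then called higher and 8.92% lower, and each count with library totals below stands beside these shares. Leaving out both libraries numbered 3 gave 12 higher and 19 lower calls of 46 carriers (26.1% and 41.3%), against 32.0% and 30.4% of the 14563 genes tested in that fit. Of the called carriers, 7 rose and 9 fell at least 2-fold.

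**Figure D1:**
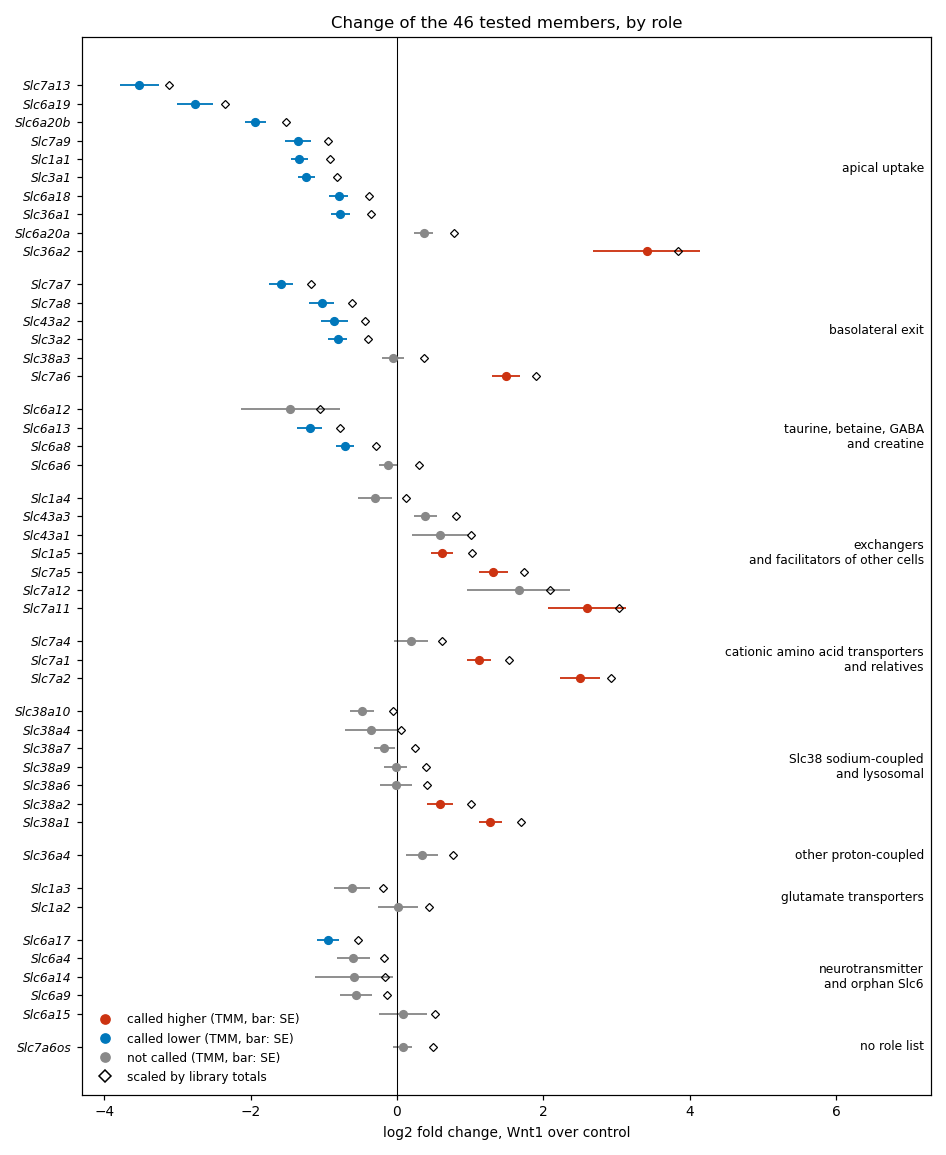
Log2 fold change of Wnt1 over control for the 46 tested carriers, grouped by role, with TMM scaling (filled circles, bars are the standard error, n = 3 libraries a group) and with library totals (open diamonds). Apical and basolateral carriers lie mostly left of 0, exchangers and cationic carriers mostly right of 0, and the diamonds lie to the right of the circles, which puts Slc38a3 and some other uncalled carriers on the other side of 0.

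The carriers as a whole took a smaller part of the transcripts with Wnt1. Their summed FPKM was 2132, 2052 and 1980 in control replicates 1 to 3 and 1352, 1322 and 1362 in Wnt1 replicates 1 to 3, which is 0.343% to 0.387% and 0.251% to 0.258% of all FPKM. The apical carriers made up 60.2 ± 1.66% of this sum in control and 42.3 ± 1.53% with Wnt1 (mean ± SD, n = 3 libraries a group), and no control library overlapped a Wnt1 library. The share of basolateral carriers overlapped between the groups, at 18.2 ± 1.63% and 19.2 ± 1.99%. The shares of the other main groups were higher with Wnt1, also without overlap. Carriers of taurine, betaine, GABA and creatine went from 10.8 ± 0.420% to 14.8 ± 0.495%, and the Slc38 family from 6.53 ± 0.304% to 12.2 ± 0.999%. Exchangers went from 2.14 ± 0.162% to 7.23 ± 1.35%, and cationic carriers from 0.273 ± 0.0490% to 1.29 ± 0.159%. Much of the exchanger share lay in uncalled genes, Slc7a12 (0.342 ± 0.233% to 2.39 ± 1.49%) and Slc43a3 (0.726 ± 0.131% to 1.94 ± 0.396%). Of the called exchangers, Slc1a5 went from 0.565 ± 0.0315% to 1.76 ± 0.23% and Slc7a5 from 0.0733 ± 0.00809% to 0.371 ± 0.0657%. Because these are shares of 1 sum, a lower apical share raises the others.

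Per length, Slc3a1 was the most abundant carrier in both groups, with 18.0 ± 0.897% of the summed FPKM in control and 15.6 ± 1.17% with Wnt1. Slc7a13 and Slc6a18 followed in control at 11.7 ± 1.5% and 11 ± 2.29%, which did not differ beyond their spread. With Wnt1, Slc7a13 held 2.07 ± 0.602% and stood 18th, and Slc6a19 moved from the 5th place (5.52 ± 1.5%) to the 21st (1.66 ± 0.247%). The taurine carrier Slc6a6 stood 11th in control, at 3.78 ± 0.0892%, and 4th with Wnt1, at 7.11 ± 0.818%, although its scaled level was not called different.

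**Figure D2:**
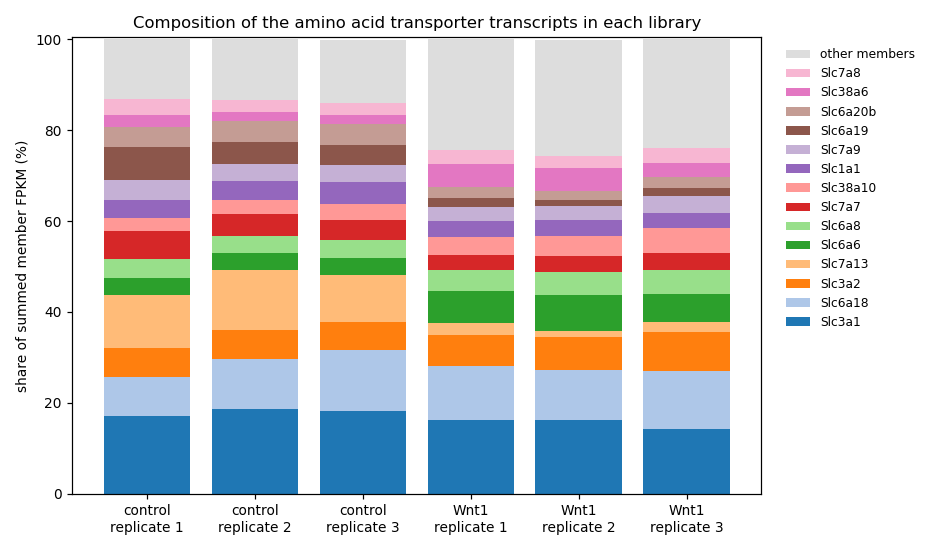
Share of the summed carrier FPKM (percent) held by each of the 14 most abundant carriers and by all others, in each of the 6 libraries. Slc3a1 is the largest segment of any single carrier in every library, while the segments of Slc7a13 and Slc6a19 are narrower in all 3 Wnt1 libraries than in all 3 control libraries.

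All 10 apical carriers were tested, and 8 fell, 1 rose and 1 was not called (median -1.28). With library totals 8 were lower and 2 higher, and the same numbers came out when both libraries numbered 3 were left out. Summed proximal tubule markers were lower in the same libraries, as given above, and their part in these falls was not tested. Slc7a13 (ENSMUSG00000041052, GRCm38 chr4:19818725-19842218, plus strand), a light chain for acidic amino acids and cystine of the late proximal tubule, was at 597, 674 and 515 CPM in control replicates 1 to 3. In Wnt1 replicates 1 to 3 it was at 65.1, 33.6 and 56.7 CPM. Every Wnt1 library was far below every control library, and the log2 fold change was -3.52 ± 0.27 (edgeR adjusted p = 8.37e-05). Transcripts of Slc7a13 are known to be more abundant in the kidneys of male than of female mice. The labels give no sex, and each library held reads of the Y-linked genes Ddx3y, Eif2s3y, Kdm5d and Uty, 711 to 3708 in sum, which was read after seeing the data. Their summed level was 32.4 and 40.0 CPM in control and Wnt1 replicates 3, and 77.1 to 118 CPM in the other libraries.

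Slc6a19 (ENSMUSG00000021565, chr13:73679745-73704865, minus strand), the main sodium-coupled carrier of neutral amino acids at the brush border, whose loss causes Hartnup disorder, was at 693, 445 and 417 CPM in control and 83.6, 60 and 85.6 CPM with Wnt1. Control replicate 1 was the highest library, and the groups lay far apart (-2.76 ± 0.25, edgeR adjusted p = 0.000141). Slc6a18 (ENSMUSG00000021612, chr13:73661752-73678023), a related carrier of glycine and other neutral amino acids, is the next gene on the same strand, 1721 bases away. It was at 500, 582 and 629 CPM in control and 334, 314 and 337 CPM with Wnt1, with a smaller fall (-0.80 ± 0.13, adjusted p = 0.00211). The log2 ratio of Slc6a18 to Slc6a19 within a library, on FPKM, was 0.27, 1.2 and 1.55 in control and 2.7, 3 and 2.84 with Wnt1. The ratio was higher in all 3 Wnt1 libraries, by 1.84 on average (exact permutation test, two-sided, p = 0.1, the smallest that 3 against 3 libraries allow). Of 7 such pairs compared, 6 gave this p, and its Benjamini-Hochberg adjusted value was 0.117. For Slc7a5 to Slc7a8, Slc7a11 to Slc3a2 and Slc1a5 to Slc6a19, given below, this p was fixed in advance. On FPKM the first gene was higher and the second lower in every Wnt1 library than in every control library.

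Slc3a1 (ENSMUSG00000024131, chr17:85028376-85064236, plus strand) encodes the heavy chain that carries Slc7a9 and Slc7a13 to the brush border. Slc7a9 (ENSMUSG00000030492, chr7:35448796-35466036) is its main light chain for cystine and dibasic amino acids, and loss of either gene causes cystinuria. Slc3a1 was at 934, 1005 and 969 CPM in control and 431, 409 and 394 CPM with Wnt1 (-1.24 ± 0.12, edgeR adjusted p = 0.000177). Slc7a9 was at 187, 160 and 153 CPM in control and 61.7, 53.9 and 79.9 CPM with Wnt1 (-1.36 ± 0.17, adjusted p = 0.000642). Neither gene's groups overlapped. The ratio of Slc7a9 to Slc3a1 differed by -0.08 between the groups, whose libraries overlapped (exact permutation p = 0.6, adjusted 0.6). The ratio of the other light chain, Slc7a13, to Slc3a1 was lower by 2.33 on the log2 scale, from -0.63 ± 0.18 to -2.96 ± 0.49, with no overlap (exact permutation p = 0.1, adjusted 0.117).

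RefSeq promoter windows (GRCm38.p6, from 250 bases before to 50 bases after a start site) were matched for 46 of the 64 carriers, 67 windows in all. They were searched on both strands for TGATGNAA, the core of the amino acid response element bound by ATF4, and for CTTTGAT, the core bound by the TCF/LEF partners of beta-catenin. Neither motif contains the other. The share of all 32851 RefSeq promoters with a match was 3.97% and 3.73%, and 5 and 5 of the 67 carrier windows had one. TGATGNAA was found in 4 carriers, Slc7a7 (lower, in overlapping windows), Slc7a11 (higher), Slc1a4 (not called) and Slc6a21 (untested). CTTTGAT was found in 5 carriers, Slc7a1 (higher), Slc1a2, Slc38a9 and Slc38a10 (not called) and Slc6a16 (untested). A match is a description of the letters and not a site. The window of Slc3a1, shown as the most abundant carrier, is chr17:85028097-85028396 on the plus strand, printed 5′ to 3′ in lower case because no motif was found in it.
Slc3a1: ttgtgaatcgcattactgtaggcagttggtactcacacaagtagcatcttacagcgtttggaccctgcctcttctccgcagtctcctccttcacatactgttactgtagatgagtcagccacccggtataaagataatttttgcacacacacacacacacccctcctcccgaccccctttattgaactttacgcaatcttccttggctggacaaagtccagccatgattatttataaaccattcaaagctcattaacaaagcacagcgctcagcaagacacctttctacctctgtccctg

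The remaining apical carriers also fell, apart from 2. Slc6a20b (ENSMUSG00000025243, chr9:123590800-123632565) was at 334, 348 and 342 CPM in control and 96.6, 74.5 and 96.5 CPM with Wnt1 (-1.94 ± 0.14, edgeR adjusted p = 6.89e-05). Its neighbour Slc6a20a (ENSMUSG00000036814, chr9:123634770-123678885) was at 25.8, 24.5 and 22 CPM in control and 32.2, 28.8 and 32.2 CPM with Wnt1 (0.37 ± 0.13, adjusted p = 0.0565). The groups of Slc6a20a did not overlap, and it was called higher in 9 of the 15 alternatives, among them library totals (0.78, adjusted p = 0.00168), while over all alternatives its adjusted p ran from 0.00168 to 0.15. The reading frames of this pair are 90.4% identical, and 500 of 1783 stretches of 75 bases are shared exactly, so how reads were divided between them is uncertain.

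Slc1a1 (ENSMUSG00000024935, chr19:28835049-28913960), which takes up glutamate and aspartate, was at 359, 376 and 421 CPM in control and 157, 150 and 151 CPM with Wnt1 (-1.33 ± 0.12, edgeR adjusted p = 0.000141). Slc36a1 (ENSMUSG00000020261, chr11:55204350-55236330), a proton-coupled carrier of proline, glycine and alanine found in lysosomes and at the brush border, was at 92.3, 99.4 and 105 CPM in control and 57.4, 52.2 and 63.8 CPM with Wnt1 (-0.78 ± 0.13, adjusted p = 0.00224). The groups of both genes lay apart. Slc36a2 (ENSMUSG00000020264, chr11:55158470-55185077), a related proton-coupled carrier encoded next to it, had 0, 8 and 1 reads in control and 42, 45 and 37 with Wnt1 (0, 0.354 and 0.0456 CPM against 1.33, 1.59 and 1.40). It rose by 3.41 ± 0.73 on the log2 scale (adjusted p = 0.00708). Nearly all of its control reads came from control replicate 2, and without that library the log2 fold change was 6.04. In their reading frames, 63 of 1447 stretches of 75 bases in Slc36a1 are shared with Slc36a2.

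**Figure D3:**
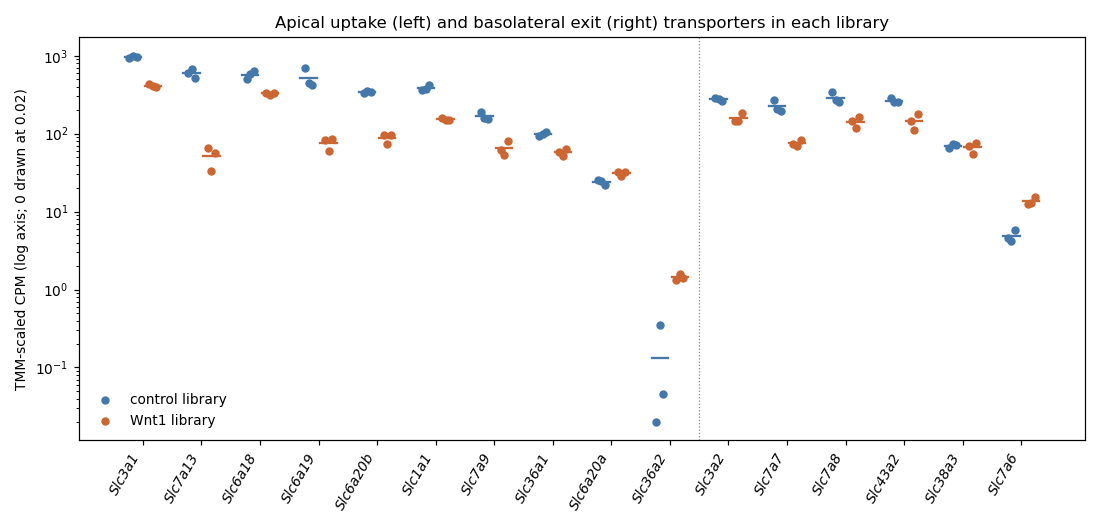
TMM-scaled CPM of each apical (left of the dotted line) and basolateral (right) carrier in each library, on a log axis where 0 is drawn at 0.02, with a bar at the group mean (n = 3 libraries a group). The control points lie above the Wnt1 points for 12 of the 16 carriers, and below them for Slc6a20a (not called), Slc36a2 and Slc7a6, while those of Slc38a3 overlap.

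Of the 6 basolateral carriers 4 fell, 1 rose and 1 was not called (median -0.83), with the same numbers when both libraries numbered 3 were left out. With library totals 3 were lower and 2 higher. Slc7a7 (ENSMUSG00000000958, chr14:54369442-54417780, minus strand) is the light chain through which dibasic amino acids leave the cell in exchange for neutral ones, and its loss causes lysinuric protein intolerance. It was at 273, 209 and 193 CPM in control and 72.9, 68.7 and 83.3 CPM with Wnt1. The groups were widely separated (-1.59 ± 0.17, edgeR adjusted p = 0.000265). The closest relative, Slc7a6 (ENSMUSG00000031904, chr8:106168857-106198706), which has a similar transport activity in many tissues, went the other way, from 4.60, 4.16 and 5.84 CPM in control to 12.5, 12.9 and 15.4 CPM with Wnt1 (1.49 ± 0.19, adjusted p = 0.000656). Slc7a7 had 47.0 ± 2.81 FPKM with Wnt1 and Slc7a6 5.29 ± 0.982 FPKM, so Slc7a7 stayed the more abundant of the pair per length. On the strand opposite to Slc7a6 lies Slc7a6os, 2010 bases away, which was not called (12.8 ± 0.336 and 13.5 ± 0.267 CPM).

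One of 5 RefSeq windows of Slc7a7, chr14:54417895-54418194 on the minus strand, is shown because it holds TGATGNAA in 2 places, in capitals, whose first letters are at -141 and -1 from the start site. The second place is shared with an overlapping window of another start site.
Slc7a7: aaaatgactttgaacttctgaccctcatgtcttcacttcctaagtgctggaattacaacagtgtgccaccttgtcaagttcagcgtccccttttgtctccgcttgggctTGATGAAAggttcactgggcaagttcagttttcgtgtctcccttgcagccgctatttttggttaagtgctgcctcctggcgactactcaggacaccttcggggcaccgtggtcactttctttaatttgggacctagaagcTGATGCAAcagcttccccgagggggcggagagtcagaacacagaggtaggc

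Slc3a2 (ENSMUSG00000010095, chr19:8706882-8723369), the heavy chain of the basolateral membrane and of most other cells, was at 289, 275 and 266 CPM in control and 145, 146 and 183 CPM with Wnt1 (-0.81 ± 0.14, edgeR adjusted p = 0.00223). The log2 ratio of Slc3a1 to Slc3a2 was 1.40, 1.55 and 1.56 in control and 1.27, 1.18 and 0.76 with Wnt1. The ratio was lower in each Wnt1 library than in every control library, by 0.44 on average (exact permutation p = 0.1, adjusted 0.117), and by 0.28 without Wnt1 replicate 3. Slc7a8 (ENSMUSG00000022180, chr14:54722209-54781946), a light chain for neutral amino acids, was at 347, 270 and 253 CPM in control and 145, 119 and 162 CPM with Wnt1 (-1.03 ± 0.17, adjusted p = 0.00234). Slc43a2 (ENSMUSG00000038178, chr11:75531694-75577575), a facilitator for branched-chain and aromatic amino acids, was at 284, 251 and 254 CPM in control and 145, 112 and 179 CPM with Wnt1 (-0.85 ± 0.18, adjusted p = 0.00673). The groups of all 3 genes were apart, and with library totals the call of Slc43a2 was lost (-0.44, adjusted p = 0.0525). Slc38a3 (ENSMUSG00000010064, chr9:107650634-107669530), which brings glutamine from the blood into the tubule cell for ammonia production, was at 64.9, 72.6 and 71.4 CPM in control and 70.0, 55.5 and 76.0 CPM with Wnt1 (-0.05 ± 0.15, adjusted p = 0.811), and with library totals it was called higher (0.37, adjusted p = 0.0462).

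Among the 7 tested exchangers and facilitators of other cells, 3 rose and none fell (median 0.62), 4 rose with library totals and 4 rose without both libraries numbered 3. Slc7a11 (ENSMUSG00000027737, chr3:49892526-50443614, minus strand), the cystine and glutamate exchanger that supplies cysteine for glutathione, was near the detection limit, with 2, 6 and 6 reads in control and 34, 55 and 21 with Wnt1. Its levels were 0.0919, 0.266 and 0.274 CPM in control and 1.08, 1.95 and 0.796 CPM with Wnt1. All Wnt1 libraries were above all control libraries (2.59 ± 0.53, edgeR adjusted p = 0.00575). Its log2 ratio to its heavy chain Slc3a2 was higher by 3.24 with Wnt1 (exact permutation p = 0.1, adjusted 0.117), from -12.36 ± 1.53 to -9.12 ± 0.49. That difference was 2.47 without control replicate 1 and 4 without control replicate 3. The permutation p of this pair was fixed in advance, as given above. The RefSeq window of Slc7a11, chr3:50443564-50443863 on the minus strand, is shown because it holds TGATGNAA once on each strand, in capitals, with first letters at -66 and -47 from the start site.
Slc7a11: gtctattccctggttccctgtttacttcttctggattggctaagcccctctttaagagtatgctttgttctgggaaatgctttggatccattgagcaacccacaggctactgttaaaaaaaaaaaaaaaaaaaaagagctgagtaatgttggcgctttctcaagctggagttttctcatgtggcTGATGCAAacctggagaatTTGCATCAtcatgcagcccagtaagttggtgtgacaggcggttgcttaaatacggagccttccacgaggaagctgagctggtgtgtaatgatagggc

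Slc7a5 (ENSMUSG00000040010, chr8:121881150-121907694), the light chain that brings leucine and other large neutral amino acids into growing cells, was at 5.70, 5.89 and 6.75 CPM in control and 13.8, 12.8 and 19.2 CPM with Wnt1 (1.32 ± 0.20, edgeR adjusted p = 0.00143). Slc7a8, the light chain with overlapping substrates that lies in the basolateral membrane, moved the opposite way. The log2 ratio of Slc7a5 to Slc7a8 was -5.34 ± 0.35 in control and -3.01 ± 0.15 with Wnt1, higher by 2.33 with no overlap (exact permutation p = 0.1, adjusted 0.117). Their opposite changes fixed this p in advance, as given above. Slc7a8 still had the higher level per length with Wnt1, at 40.2 ± 4.82 FPKM against 5 ± 0.947 FPKM for Slc7a5. Slc1a5 (ENSMUSG00000001918, chr7:16781340-16798274), a glutamine exchanger of dividing cells, was at 35.5, 37.6 and 38.1 CPM in control and 56.1, 47.1 and 67.3 CPM with Wnt1 (0.62 ± 0.16, adjusted p = 0.0148). On FPKM, Slc1a5 stood at 11.6 ± 0.258 in control, against 114 ± 35.3 for Slc6a19, and with Wnt1 the values were 23.7 ± 3.44 and 22.4 ± 3.62. The log2 ratio of these genes was higher by 3.34 with Wnt1 (exact permutation p = 0.1, adjusted 0.117), from -3.26 ± 0.45 to 0.09 ± 0.13. For this pair too the p was fixed in advance, as given above.

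Slc7a12 (ENSMUSG00000039710, chr3:14480697-14505830), a small neutral amino acid carrier that in mouse kidney is known for a higher level in females, was at 18.2, 12.2 and 2.97 CPM in control and 44.8, 49.7 and 11 CPM with Wnt1. The groups overlapped, because replicate 3 was the lowest library of both, and the change was not called (1.66 ± 0.71, edgeR adjusted p = 0.0984). Its transcript has a GC content of 37.5%, within the fifth of genes that were low in both libraries numbered 3. Without these libraries its log2 fold change was 1.64 (adjusted p = 0.000462), and over all alternatives the adjusted p ran from 2.56e-07 to 0.256. The other uncalled exchangers were Slc43a3, known as a carrier of purine nucleobases (0.39 ± 0.16, adjusted p = 0.0876), Slc43a1 and the alanine, serine and cysteine carrier Slc1a4 (-0.30 ± 0.23, adjusted p = 0.341).

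Of the 3 tested cationic carriers, 2 rose (median 1.12), and with library totals all 3 did. Slc7a2 (ENSMUSG00000031596, chr8:40862396-40922308), an arginine carrier known in liver and in activated macrophages, was at 8.14, 6.20 and 6.25 CPM in control and 38.8, 51.7 and 25.9 CPM with Wnt1. Each Wnt1 library lay above each control library (2.50 ± 0.27, edgeR adjusted p = 0.000311). Slc7a1 (ENSMUSG00000041313, chr5:148327410-148399904, minus strand), the widespread arginine and lysine carrier, was at 17.2, 18.2 and 18.8 CPM in control and 34.0, 36.6 and 47.4 CPM with Wnt1 (1.12 ± 0.16, adjusted p = 0.00109). Summed macrophage markers were higher in the same libraries, as given above, and their part in these rises was not tested. Slc7a4, a relative without known amino acid transport, was not called (0.20 ± 0.23, adjusted p = 0.535). CTTTGAT was also found in windows of carriers without a call, as given above. One of 2 RefSeq windows of Slc7a1, chr5:148392766-148393065 on the minus strand, which belongs to a start site inside the gene, is shown because it holds CTTTGAT once, on the opposite strand, in capitals with its first letter at -48.
Slc7a1: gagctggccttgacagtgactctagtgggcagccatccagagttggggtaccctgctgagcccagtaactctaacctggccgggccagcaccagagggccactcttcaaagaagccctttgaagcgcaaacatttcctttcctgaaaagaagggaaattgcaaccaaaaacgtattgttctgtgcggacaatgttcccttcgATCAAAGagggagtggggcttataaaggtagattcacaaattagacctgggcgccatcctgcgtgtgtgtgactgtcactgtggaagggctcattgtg

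Among the 7 tested members of the Slc38 family, 2 rose and none fell (median -0.02), and without both libraries numbered 3 the counts were 2 higher and 1 lower. Slc38a1 (ENSMUSG00000023169, chr15:96571418-96642913), a sodium-coupled glutamine carrier, was at 7.08, 5.85 and 6.21 CPM in control and 14.8, 15.7 and 15.9 CPM with Wnt1 (1.28 ± 0.15, edgeR adjusted p = 0.000455). Slc38a2 (ENSMUSG00000022462, chr15:96687392-96699730), its neighbour on the same strand and a carrier known to be induced when amino acids are scarce, was at 77.2, 74.6 and 70.2 CPM in control and 113, 135 and 86.0 CPM with Wnt1. The groups did not overlap (0.59 ± 0.17, adjusted p = 0.0279), but the call was lost when any of 5 libraries was left out, all except Wnt1 replicate 3 (adjusted p 0.0745 to 0.09). The uncalled members of highest FPKM were Slc38a10, Slc38a6 and Slc38a7, a lysosomal glutamine carrier. Slc38a10 was at 317 ± 27.1 CPM in control and 228 ± 47 CPM with Wnt1 (-0.47 ± 0.17, adjusted p = 0.0532). Slc38a6 was at 198 ± 41.4 and 196 ± 45.4 CPM (-0.01 ± 0.22, adjusted p = 0.967), and Slc38a7 at 25.7 ± 1.13 and 22.8 ± 2.76 CPM (-0.17 ± 0.14, adjusted p = 0.371). On FPKM, which has no composition factor, Slc38a6 was at 44.4 ± 10.3 and 58.7 ± 14.9, and Slc38a7 at 7.68 ± 0.736 and 8.85 ± 1.03. Slc38a9, the arginine sensor of the lysosome, was at 12.1 ± 1.22 and 12.0 ± 0.979 CPM (-0.02 ± 0.15, adjusted p = 0.94). Slc38a10 was called lower without both libraries numbered 3 (-0.59, adjusted p = 0.000707).

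Of the 4 carriers of osmolytes and creatine, 2 fell (median -0.95), and 1 did with library totals. Slc6a13 (ENSMUSG00000030108, chr6:121300227-121337733), a GABA, taurine and betaine carrier, was at 133, 158 and 176 CPM in control and 66.3, 57.4 and 81.1 CPM with Wnt1 (-1.19 ± 0.17, edgeR adjusted p = 0.00114). Slc6a8 (ENSMUSG00000019558, chrX:73673150-73682502), the creatine carrier, was at 343, 313 and 323 CPM in control and 185, 193 and 221 CPM with Wnt1 (-0.71 ± 0.12, adjusted p = 0.00273). Both genes had every Wnt1 library below every control library, but the call of Slc6a8 was lost with library totals (-0.29, adjusted p = 0.0518) and with limma on log2(FPKM + 1) (-0.26, adjusted p = 0.0855). The taurine carrier Slc6a6 was at 551, 530 and 498 CPM in control and 485, 516 and 446 CPM with Wnt1, with overlapping groups (-0.13 ± 0.12, adjusted p = 0.444). Slc6a12, the betaine carrier of the medulla that adjoins Slc6a13, was at 1.93, 1.37 and 3.29 CPM in control and 0.412, 0.283 and 1.74 CPM with Wnt1, with replicate 3 highest in both groups (-1.45 ± 0.67, adjusted p = 0.123). Without both of those libraries its log2 fold change was -2.24 (adjusted p = 0.00209).

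**Figure D4:**
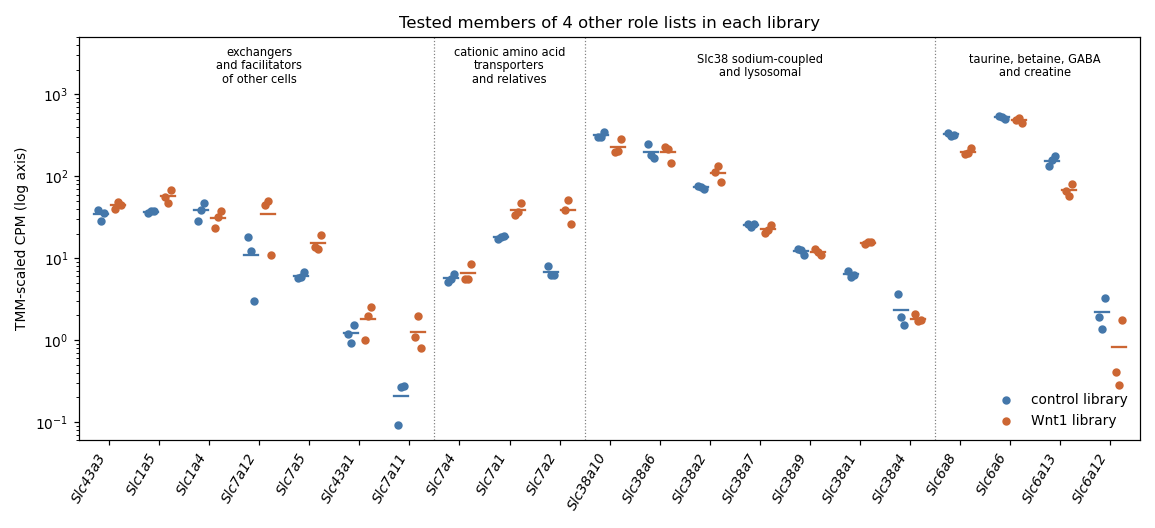
TMM-scaled CPM of each tested exchanger, cationic, Slc38 and osmolyte or creatine carrier in each library, on a log axis, with a bar at the group mean (n = 3 libraries a group). The Wnt1 points lie above the control points for Slc1a5, Slc7a5, Slc7a11, Slc7a1, Slc7a2, Slc38a1, Slc38a2 and, uncalled, Slc43a3, and below them for Slc6a8, Slc6a13 and, uncalled, Slc38a10, while Slc7a12 is lowest in replicate 3 of both groups.

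The carriers better known from nerve tissue were of low level. Of 5 tested neurotransmitter and orphan Slc6 genes, 1 fell, and 2 were lower when both libraries numbered 3 were left out. Slc6a17 (ENSMUSG00000027894, chr3:107467543-107518018), known as a carrier of synaptic vesicles, was at 40.9, 41.1 and 44.8 CPM in control and 21.3, 18.8 and 25.8 CPM with Wnt1, with no overlap (-0.94 ± 0.15, edgeR adjusted p = 0.00193). The 4 uncalled ones included the glycine carrier Slc6a9, at 33.0 ± 4.41 and 22.4 ± 6.38 CPM (-0.56 ± 0.22, adjusted p = 0.0786), the serotonin carrier Slc6a4, at 9.49 ± 1.72 and 6.28 ± 1.43 CPM (-0.60 ± 0.23, adjusted p = 0.0681), and Slc6a15, at 13.8 ± 1.78 and 14.6 ± 6.25 CPM (0.08 ± 0.33, adjusted p = 0.866). The tested glutamate carriers Slc1a2 and Slc1a3 were not called, at 0.02 ± 0.27 (adjusted p = 0.971) and -0.61 ± 0.25 (adjusted p = 0.0819), nor was the proton-coupled Slc36a4, at 0.35 ± 0.22 (adjusted p = 0.237). Slc6a9 was called lower in 4 of the 15 alternatives, among them the fit without both libraries numbered 3 (-0.75, adjusted p = 0.0095), and Slc6a4 in 3. Slc1a3 was called lower in 2, among them the same fit (-0.76, adjusted p = 0.0371). Slc36a4 was called higher in 6, among them library totals (0.77, adjusted p = 0.0271) and the fit without both libraries numbered 3 (0.36, adjusted p = 0.022).

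The 18 untested carriers had at most 10 reads in any library. Among them were Slc1a6, Slc1a7, Slc36a3, Slc38a5, Slc38a8, Slc38a11, Slc6a2, Slc6a3, Slc6a5, Slc6a7, Slc6a11, Slc6a16, Slc6a21, Slc7a3, Slc7a10, Slc7a14 and Slc7a15. Slc36a3 had 0 reads in all 6 libraries, and 5 of the 18 had 0 reads in every control library. Differences among them were not detectable at this depth.

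**Figure D5:**
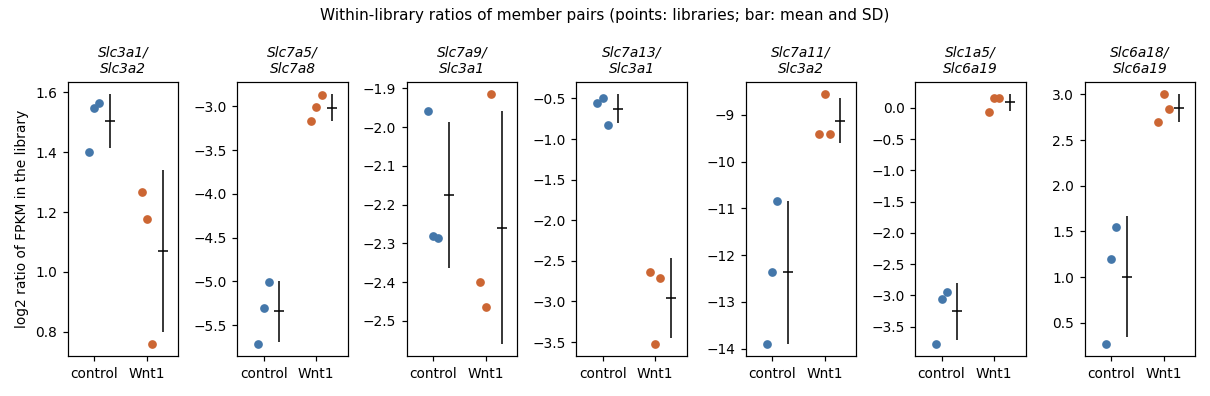
Log2 ratio of FPKM within each library for the 7 pairs of carriers, by group, with each vertical scale fitted to its pair (points are libraries, bars are the mean and SD, n = 3 libraries a group). Control and Wnt1 points do not overlap in 6 pairs, and overlap for Slc7a9 and Slc3a1.

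Genes that work with these carriers were read from 5 lists. Of 13 brush-border partners and peptide uptake genes, 10 were lower and none higher (median -0.75), and with library totals 5 were lower. Cltrn, the collectrin subunit that Slc6a19 and Slc6a18 need to reach the brush border, went from 1295 ± 135 to 395 ± 68.5 CPM (-1.72 ± 0.17, edgeR adjusted p = 0.000209). The scaffold Pdzk1 changed by -1.37 ± 0.15 (adjusted p = 0.000333), the glutathione-splitting enzyme Ggt1 by -1.83 ± 0.20 (adjusted p = 0.00031) and the leucine aminopeptidase Lap3 by -1.47 ± 0.14 (adjusted p = 0.000179). Of 8 transcription factors of proximal tubule genes, 5 were lower and none higher (median -0.88), with 3 lower and 1 higher under library totals. Hnf4a fell from 1179 ± 92.3 to 504 ± 36.8 CPM (-1.23 ± 0.13, edgeR adjusted p = 0.00028). The bile acid receptor Nr1h4 changed by -1.13 ± 0.20 (adjusted p = 0.00312). Hnf4a also counts among the proximal tubule markers above.

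Of 21 genes of the amino acid response through ATF4, the factor made when amino acids are short, 9 were higher and 2 lower (median 0.29). With library totals 14 were higher and 2 lower (median 0.70), and without both libraries numbered 3 the counts were 9 and 4. Mthfd2, an enzyme of mitochondrial folate metabolism, went from 3.27 ± 0.764 to 10.2 ± 1.06 CPM (1.65 ± 0.22, edgeR adjusted p = 0.000757), and the stress gene Nupr1 from 15.3 ± 1.01 to 39.4 ± 9.32 CPM (1.36 ± 0.19, adjusted p = 0.000913). The cystathionase gene Cth was lower, from 223 ± 11.1 to 95.3 ± 17.5 CPM (-1.23 ± 0.16, adjusted p = 0.000676), as was the serine enzyme Shmt2, from 287 ± 25.5 to 106 ± 28.1 CPM (-1.44 ± 0.20, adjusted p = 0.000882). Atf4 itself was at 94.9 ± 4.70 and 113 ± 13.3 CPM (0.25 ± 0.13, adjusted p = 0.17). The groups of Atf4 did not overlap, and with library totals it was called higher (0.665, edgeR adjusted p = 0.00212). Without both libraries numbered 3 it was not called (0.178, adjusted p = 0.0782).

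Of 10 genes of glutathione synthesis and cystine use, 6 were lower and 1 higher (median -0.76), with 3 lower and 3 higher under library totals. Among them were both subunits of the first enzyme of the synthesis, Gclc (-0.94 ± 0.17, edgeR adjusted p = 0.00319) and Gclm (-0.75 ± 0.14, adjusted p = 0.0031), the second enzyme Gss (-1 ± 0.16, adjusted p = 0.00177) and the cyclotransferase Ggct (-1.74 ± 0.16, adjusted p = 0.000154). Of 24 genes of amino acid sensing at the lysosome, 8 were lower and 1 higher (median -0.24), with 5 lower and 6 higher under library totals, where 44.0% of all genes were higher and 8.92% lower. When both libraries numbered 3 were left out, 12 were lower and 3 higher. Mtor, the kinase that the sensors control, changed by -1.63 ± 0.15 (adjusted p = 0.000168), from 391 ± 41.3 to 126 ± 18.8 CPM. Fnip2, a partner of folliculin, went from 126 ± 13.0 to 56.4 ± 2.77 CPM, and Castor2, a relative of the arginine sensor Castor1, from 153 ± 12.1 to 88.7 ± 14.4 CPM. Nprl2, a subunit of the complex that restrains mTOR when amino acids are short, went from 32.2 ± 1.12 to 17.7 ± 3.98 CPM.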

How the data were processed

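Kidney RNA of 6 mouse libraries, 3 control and 3 Wnt1, was enriched for messenger RNA on oligo(dT) beads and prepared with the NEBNext Ultra kit, per the labels' protocols. The submitters' processing notes name RSEM, HISAT2, Bowtie2 2.2.8, StringTie 1.3.1 and fastp 0.18.0 with mm10. What each did, the annotation and strand use were not given in the sources used here. Expected counts per gene and library were deposited by the authors, of which 9.02% were not whole (tolerance 1e-06) and were rounded. The authors also deposited FPKM values, scaled by length and library total without a composition factor. Carriers were all symbols matching the 7 family names, and identifiers and coordinates are from GENCODE M21 (GRCm38).

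Counts were tested in R 4.3.3 with edgeR 4.0.16 (filterByExpr, TMM, robust quasi-likelihood, two-sided), with Benjamini-Hochberg adjustment over 14432 genes. Standard errors come from the coefficient and the F statistic. The fit was tested on simulated data. Pair ratios were compared by exact permutation tests. The protocols mention no molecular identifiers, so detection limits cover counting error only. Alternatives were DESeq2 1.42.0, library totals, 2 other filters, limma 3.58.1 on log2(FPKM + 1) and log2(FPKM + 0.1), leaving out libraries, and, added after seeing the data, a covariate for both libraries numbered 3. Every tested apical and basolateral carrier, every called carrier of the other groups and up to 3 uncalled ones of highest FPKM were named, with up to 4 called genes of smallest p from each further list. Slc38a9, Slc43a1 and Atf4 were named after their values were seen. The members and lists were chosen with earlier results of these data known. Some genes are not reported here.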

Additional observations from a re-analysis of the deposited data

How the results depend on the processing

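No paired analysis was possible because replicate numbers follow the order of the records and pair nothing. Over 15 alternatives, 8 of the 9 higher and 12 of the 15 lower carriers were called wherever they were tested, and 9 carriers were called in none. With library totals, 15 carriers were called higher and 13 lower, and Slc38a3, negative in the reported fit, was at 0.37 (log2). A covariate for both libraries numbered 3, added after seeing the data, gave 13 higher and 20 lower calls, and 9 carriers gained a call. Leaving out 1 library gave 8 to 12 higher and 15 to 18 lower calls. For the ratio of Slc7a9 to Slc3a1, leaving out 1 library gave differences from -0.26 to 0.025, so its sign is not fixed. The calls lost in some setting were those of Slc38a2, Slc43a2, Slc6a8 and Slc6a17, the last only with limma on log2(FPKM + 1) without a filter. Slc7a11 (14 control reads in all) and Slc36a2 (9) were limited by depth, and on log2(FPKM + 1) their changes were 0.20 and 0.69. With 3 libraries a group, the permutation tests could not go below 0.1. The cause of these differences between settings was not tested.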
